A study of Mus musculus with 8 samples.

Results

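RNA levels were examined for 10 genes that take up, bind, make or break down retinoids such as retinoic acid (RA): Stra6, Crabp1, Crabp2, Rdh10, Dhrs3, Aldh1a1, Aldh1a2, Aldh1a3, Cyp26a1 and Cyp26b1. The data hold no measure of RA or of protein. The genes were taken by symbol from the 55421 genes of the count table, and all 10 passed the filter on low counts that left 20588 genes for testing. The data were poly(A) RNA-seq counts of 8 libraries from cultured mouse spermatogonia (SSC culture), with 2 libraries a group for 2 genotypes and 2 media. The genotypes were STRA8KO, deficient for Stra8, which acts downstream of RA at the start of meiosis, and SPO11KO, deficient for Spo11, which makes the DNA breaks of meiotic recombination. The media were Veh, the vehicle control in SSC medium, and NRRA, a nutrient-restricted medium of mostly Earle's salts to which RA was added. All 4 groups carried a knockout on a C57BL/6XDBA/2 background, and no wild-type culture was analysed here. In NRRA, Earle's salts replace most of the SSC medium, so the bFGF, GDNF and serum of that medium are diluted along with its nutrients. The separate effects of nutrient restriction, of this dilution and of RA cannot be told apart. The germ cells came from testes of neonatal pups and were grown with N2, bFGF and GDNF on a layer of irradiated mouse embryonic fibroblasts, whose RNA the libraries can hold.

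Retinol enters cells with the help of the receptor STRA6, and RDH10 oxidises it to retinal while DHRS3 reduces retinal back to retinol. The ALDH1A enzymes oxidise retinal to RA, which CRABP1 and CRABP2 bind in the cytosol, and the CYP26 enzymes hydroxylate RA for removal. In the testis, RA drives the differentiation of spermatogonia and the entry of germ cells into meiosis, and CYP26B1 made by somatic cells of the fetal testis keeps RA away from male germ cells. Several of these genes, Cyp26a1 and Dhrs3 among them, are themselves well-known transcriptional targets of RA and its receptors, so their products limit the signal that raises them.

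Total counts per library ranged from 20960794 to 27038868. In STRA8KO, Stra8 had 2 and 0 counts without and 169 and 170 with NRRA, and libraries labelled SPO11KO had 28 and 12 without and 12604 and 16191 with it, so within a medium its counts separate the genotypes. Spo11 had more counts under the SPO11KO label (72 and 75 in Veh) than in STRA8KO (32 and 31 in Veh), so its counts did not check that label. Summed levels of cell type markers also differed between the groups. Levels are in CPM, a gene's counts scaled by TMM to a library of 1e+06 counts. Summed over 16 fibroblast markers, STRA8KO ranged from 17980 to 18520 CPM in Veh and from 37870 to 38600 CPM in NRRA, and SPO11KO from 9786 to 9845 and from 19340 to 20090 CPM. Summed over 8 germ cell markers, STRA8KO ranged from 725 to 728 CPM in Veh and from 880 to 916 CPM in NRRA, and SPO11KO from 1523 to 1568 and from 1660 to 1734 CPM, and no marker of either list was at 0 in any library. The remaining lists were lower. The Sertoli list lay between 69.1 and 334 CPM, most of it from Inhbb and Sox9, with the receptor gene Fshr at 0 in 5 libraries. The macrophage list lay between 28.5 and 57.2 CPM and the Leydig list between 5.82 and 8.62 CPM. In these bulk libraries, fewer cells of a type and less RNA per cell cannot be told apart.

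Crabp1 dominated the retinoid genes in every group. Compared per length, as CPM per kb of annotated exon, it stood at 2458 ± 29.6 in Veh and 753 ± 30.9 in NRRA for STRA8KO, and at 1116 ± 18.7 and 415 ± 0.440 for SPO11KO (mean ± SD, n = 2 libraries each). Cyp26b1 was next in all 4 groups, from 10.4 ± 0.906 in SPO11KO Veh to 81.0 ± 3.34 in STRA8KO NRRA. Under NRRA both genotypes shared 1 order of the 10 genes per length, which ran Crabp1, Cyp26b1, Dhrs3, Crabp2, Cyp26a1, Aldh1a2, Rdh10, Stra6, Aldh1a1 and Aldh1a3. In Veh, Dhrs3 was the fourth in STRA8KO and the fifth in SPO11KO, and Cyp26a1 was the eighth in each. The lowest 3 genes of STRA8KO Veh, which were Cyp26a1 at 0.208 ± 0.136, Stra6 at 0.184 ± 0.0211 and Aldh1a1 at 0.177 ± 0.00551 CPM per kb, did not differ beyond their spread, and neither did Aldh1a1 (0.0903 ± 0.0530) and Stra6 (0.0771 ± 0.00697) in SPO11KO Veh, or Stra6 (0.406 ± 0.0218) and Aldh1a1 (0.349 ± 0.0525) in SPO11KO NRRA. Exon length is the union over annotated transcripts, so genes with long rarely used exons rank too low on this scale.

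**Figure D1:**
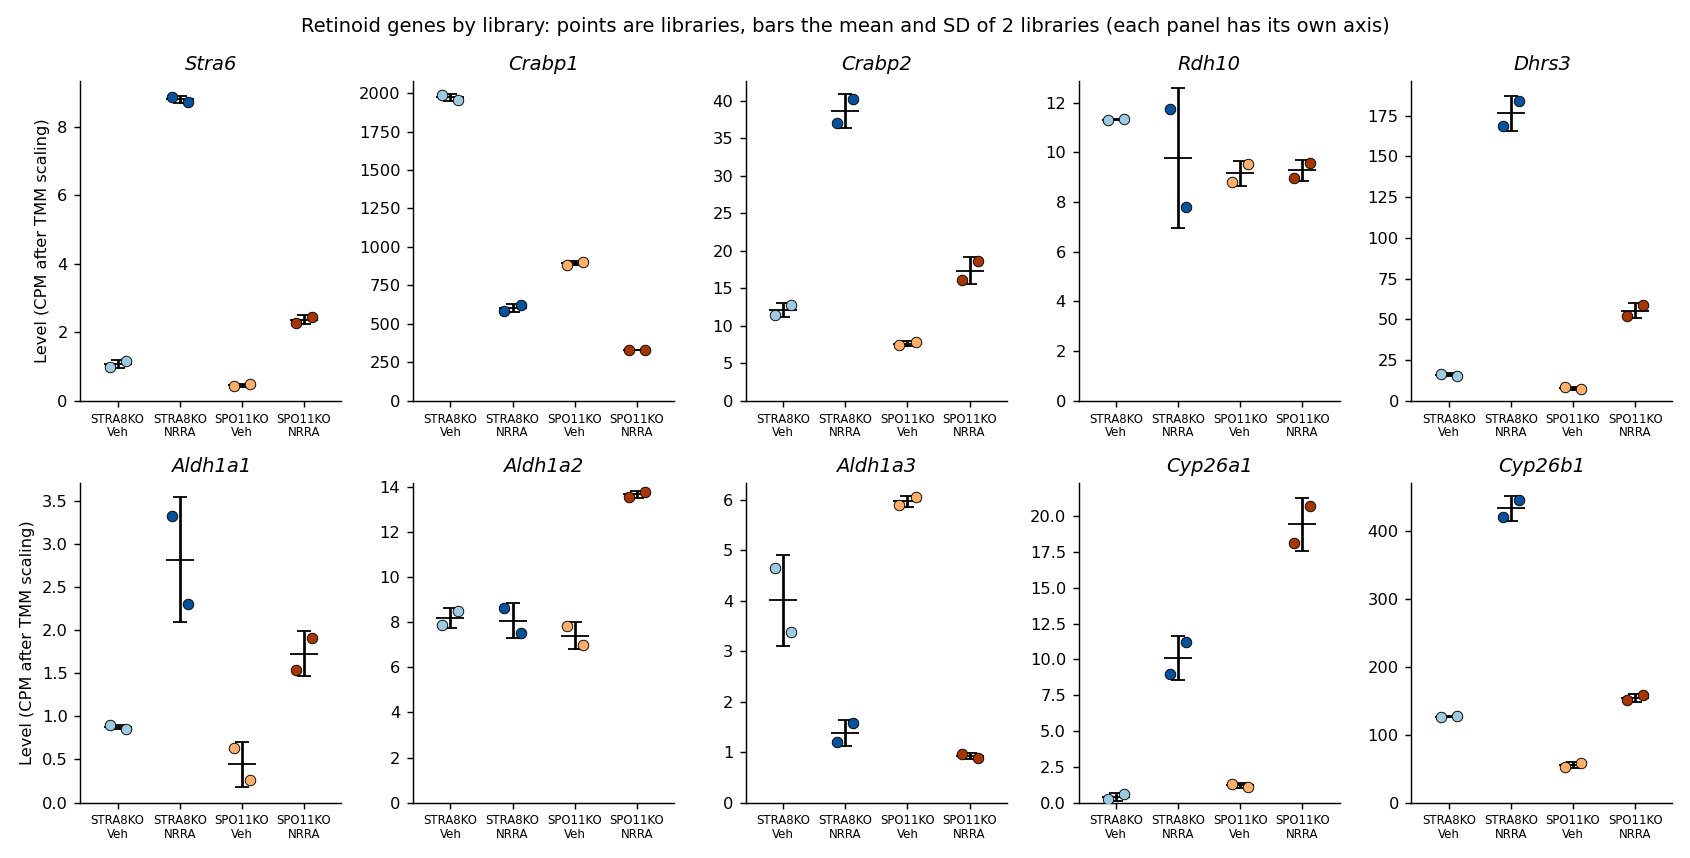
Level of each of the 10 retinoid genes in the 8 libraries, in CPM after TMM scaling on a linear axis that starts at 0 and differs between panels. Points are libraries, and bars give the mean and SD of the 2 libraries of a group. Stra6, Crabp2, Dhrs3, Aldh1a1, Cyp26a1 and Cyp26b1 are higher in both NRRA groups, Crabp1 and Aldh1a3 are lower in both, Aldh1a2 is high in SPO11KO NRRA, and the 2 STRA8KO NRRA libraries differ widely for Rdh10.

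The first question was how NRRA changed the retinoid genes within each genotype. Stra6, Crabp2, Dhrs3, Aldh1a1, Cyp26a1 and Cyp26b1 rose in both genotypes, from 2.28-fold for Crabp2 in SPO11KO to 24.8-fold for Cyp26a1 in STRA8KO. Crabp1 and Aldh1a3 fell in both, Aldh1a2 rose in SPO11KO, and Rdh10 was not called in either. In STRA8KO, 6 of the 10 genes were called higher, where 21.6% of all tested genes were, and 2 were called lower, where 20.2% were. In libraries labelled SPO11KO, 7 were called higher against 24.5% of all genes and 2 lower against 25.5%. With total counts in place of TMM scaling those last shares became 31.5% and 19.6%, and the members' counts stayed at 7 and 2. The median log2 fold change of the 10 genes was 1.68 in STRA8KO and 1.33 in SPO11KO, against 0.013 over all tested genes in each. Calls were made with edgeR's quasi-likelihood test at a Benjamini-Hochberg adjusted p under 0.05 over all tested genes. Its p-values measure the spread between 2 libraries a group, whose origin from separate cultures is not stated in the labels. The test also borrows spread from other genes and from all 4 groups, so a very small p does not rest on a gene's own libraries alone. The common coefficient of variation between libraries of a group was 3.393%. Marker lists moved with the medium too. Of 16 fibroblast markers, 12 were called higher and 2 lower in STRA8KO and 13 higher and 3 lower in SPO11KO, with median log2 fold changes of 0.65 and 0.64. They did not move together, since single markers ran from -0.73 to 1.78 in STRA8KO and from -0.52 to 1.68 in SPO11KO. Germ cell markers were called higher for 6 of 8 in STRA8KO and 7 of 8 in SPO11KO (medians 0.25 and 0.18), with none lower. Of 5 Sertoli markers tested, 3 were called lower and 1 higher in STRA8KO and 2 lower in SPO11KO, and the summed level of the 9 on the list went from between 318 and 334 to between 141 and 144 CPM and from between 163 and 167 to between 69.1 and 73.9 CPM. The part of these lists in the members' differences was not tested.

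The uptake gene Stra6 and the binding gene Crabp2 rose in both genotypes, and the binding gene Crabp1 fell. Stra6 (chromosome 9, 58063788 to 58153996, plus strand, GRCm38) went from 22 and 23 counts in Veh to 184 and 189 in NRRA for STRA8KO, and from 10 and 11 to 59 and 72 counts for SPO11KO. All 4 NRRA libraries lay above all 4 Veh libraries. It was 8.22-fold higher with NRRA in STRA8KO (log2 fold change 3.04, SE 0.220, adjusted p = 9.17e-17) and 5.22-fold higher in SPO11KO (SE 0.307 on the log2 scale, adjusted p = 4.36e-09). Crabp2 (chromosome 3, 87948666 to 87953376, plus strand), whose product carries RA to its nuclear receptors, went from 11.5 and 12.8 CPM in Veh to 37.0 and 40.3 in NRRA for STRA8KO, and from 7.40 and 7.87 to 16.1 and 18.6 CPM for SPO11KO. The rises were 3.20-fold (log2 1.68, SE 0.0920, adjusted p = 2.5e-21) and 2.28-fold (log2 1.19, SE 0.105, adjusted p = 7.94e-14), with no overlap between media. Its paralogue Crabp1 (chromosome 9, 54764748 to 54773110, plus strand) went the other way, from 1988 and 1954 to 586 and 621 CPM in STRA8KO and from 884 and 905 to 332.9 and 333.4 CPM in SPO11KO. It fell 3.27-fold (log2 -1.71, SE 0.0356, adjusted p = 9.28e-39) and 2.69-fold (SE 0.0358 on the log2 scale, adjusted p = 2.79e-35). Crabp1 had from 8638 to 44502 counts a library, and both falls far exceeded the spread between libraries of a group.

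Of the pair that interconverts retinol and retinal, the reductase gene rose and the dehydrogenase gene was not called. Dhrs3 (chromosome 4, 144892827 to 144928209, plus strand), which returns retinal to retinol, went from 373 and 308 counts in Veh to 3501 and 3993 in NRRA for STRA8KO. In SPO11KO it went from 196 and 164 to 1349 and 1725 counts. The rises were 11.0-fold (log2 3.45, SE 0.0687, adjusted p = 2.26e-38) and 7.21-fold (log2 2.85, SE 0.0833, adjusted p = 1.46e-31). Rdh10 (chromosome 1, 16105774 to 16133734, plus strand), the main retinol dehydrogenase of RA synthesis, gave 11.3 and 11.3 CPM in Veh and 11.8 and 7.79 CPM in NRRA for STRA8KO, and 8.79 and 9.52 against 8.98 and 9.58 CPM for SPO11KO. Its log2 fold changes were -0.21 (95% interval -0.48 to 0.053, adjusted p = 0.203) in STRA8KO and 0.02 (-0.24 to 0.28, adjusted p = 0.907) in SPO11KO. The STRA8KO value rested on its NRRA libraries: without replicate 1 it was -0.54 (adjusted p = 0.00465) and without replicate 2 it was 0.06 (adjusted p = 0.813).

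The 3 retinal dehydrogenase genes each behaved differently. Aldh1a1 (chromosome 19, 20492715 to 20643465, plus strand) was scarce, with 20 and 17 counts in Veh and 69 and 50 in NRRA for STRA8KO, and 15 and 6 against 40 and 56 counts for SPO11KO. It rose 3.20-fold in STRA8KO (log2 1.68, SE 0.317, adjusted p = 1.76e-05) and 3.83-fold in SPO11KO (log2 1.94, SE 0.369, adjusted p = 1.57e-05), and the log2 value in SPO11KO went up to 2.71 without SPO11KO Veh replicate 1. Aldh1a2 (chromosome 9, 71215789 to 71296243, plus strand), the enzyme that makes RA in much of the embryo, had 176 and 169 counts in Veh and 179 and 163 in NRRA for STRA8KO, where the media overlapped (log2 -0.02, 95% interval -0.28 to 0.25, adjusted p = 0.928). In libraries labelled SPO11KO it went from 186 and 161 to 352 and 405 counts, a 1.85-fold rise (log2 0.88, SE 0.116, adjusted p = 7.46e-09). Aldh1a3 (chromosome 7, 66390890 to 66427517, minus strand) had 104 and 67 counts in Veh against 25 and 34 in NRRA for STRA8KO, and 140 and 139 against 25 and 26 for SPO11KO. It fell 2.89-fold (log2 -1.53, SE 0.242, adjusted p = 6.09e-07) and 6.43-fold (SE 0.230 on the log2 scale, adjusted p = 2.56e-14), and every NRRA library lay below every Veh library.

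Both RA hydroxylase genes rose, the scarce one most. Cyp26a1 (chromosome 19, 37697798 to 37701536, plus strand) went from 5 and 12 counts in Veh to 187 and 243 in NRRA for STRA8KO, and from 31 and 25 to 471 and 609 counts for SPO11KO. The rises were 24.8-fold in STRA8KO (log2 4.63, 95% interval 4.12 to 5.14, adjusted p = 2.06e-21) and 16.2-fold in SPO11KO (log2 4.02, 95% interval 3.67 to 4.37, adjusted p = 1.42e-25). The STRA8KO value moved with its Veh libraries, whose counts were few, and its log2 fold change was 4.05 without replicate 1 and 5.47 without replicate 2. Cyp26b1 (chromosome 6, 84571414 to 84593908, minus strand) was abundant already in Veh, at 126 and 127 CPM in STRA8KO and 52.1 and 59.0 CPM in SPO11KO. With NRRA it stood at 421 and 446 CPM in STRA8KO and 151 and 159 CPM in SPO11KO, rises of 3.42-fold (log2 1.77, SE 0.0447, adjusted p = 1.57e-34) and 2.79-fold (log2 1.48, SE 0.0489, adjusted p = 1.12e-29).

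**Figure D2:**
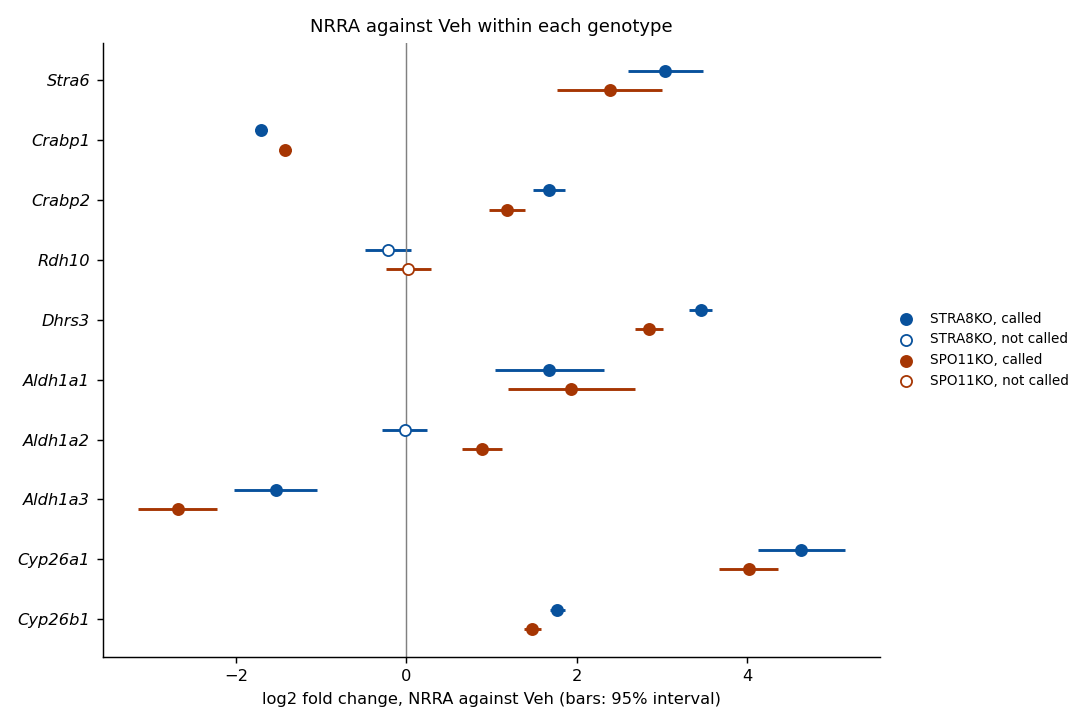
Log2 fold change of NRRA against Veh for the 10 genes in STRA8KO (blue) and in libraries labelled SPO11KO (brown), with 95% intervals as bars and open circles for genes not called at an adjusted p under 0.05. Filled points run from 4.63 for Cyp26a1 in STRA8KO down to -2.69 for Aldh1a3 in SPO11KO, and the Rdh10 intervals span 0 in both genotypes.

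RA receptors bind with their RXR partners to direct repeats of a hexamer, so the promoter windows that RefSeq gives for the genes were searched for such repeats. The half-sites searched were AGGTCA or AGTTCA or GGGTCA or GGTTCA, on both strands, as direct repeats with a spacer of 1, 2 or 5 bases, in windows from 250 bases before to 50 bases after each start (GRCm38.p6). Windows were held for 7 of the 10 genes, 13 windows in all. A repeat was found in 1 of them, that of Cyp26a1. It read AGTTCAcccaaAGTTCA with a spacer of 5 bases on the opposite strand, at chr19:37697776-37697792, from -32 to -16 relative to the RefSeq start. Of 32851 windows of 300 bases, 0.0974% held a repeat with that spacer and 0.588% held a repeat with any of the 3 spacers, while 43.7% held at least 1 single half-site. Stretches upstream of the start are shown for both hydroxylase genes, since both rose with NRRA and their windows differ in this element. Capitals mark the repeat as it reads on the strand of Cyp26a1, and the stretch of Cyp26b1 holds none of these repeats.
Cyp26a1, chr19:37697688-37697797, plus strand: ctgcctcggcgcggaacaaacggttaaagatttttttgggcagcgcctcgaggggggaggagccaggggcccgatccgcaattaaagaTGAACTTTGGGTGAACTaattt
Cyp26b1, chr6:84593941-84594060, minus strand: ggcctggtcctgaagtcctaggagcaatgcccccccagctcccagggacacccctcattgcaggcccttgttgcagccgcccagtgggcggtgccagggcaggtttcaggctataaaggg
A match of letters is a description of the sequence and no measure of receptor binding. The windows of Dhrs3, Stra6, Crabp1, Aldh1a1 and Aldh1a2 held no such repeat either. Those of Stra6, from chr9:58128838 on, all lie inside the gene span given above, so the start of that span was not searched. For Aldh1a1, 1 window lies just before the start of its span and 1 inside it. No window was held for Rdh10, Aldh1a3 and Crabp2. Sequence outside the windows was not searched, so these genes may hold such repeats elsewhere.

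The second question was how the genotypes differed within a medium. Stra6, Crabp1, Crabp2, Dhrs3 and Cyp26b1 were higher in STRA8KO than in libraries labelled SPO11KO in both media, by 1.58-fold to 3.71-fold. Cyp26a1 was lower in STRA8KO in both. In Veh, 6 of the 10 genes were called higher in STRA8KO, where 31.6% of all tested genes were, and 2 lower, where 30.7% were. In NRRA, 6 were called higher against 35% of all genes, and 2 lower against 28.9%. With total counts the NRRA shares became 26% and 39.7%, and 5 members were called higher in each medium. The median log2 difference of the 10 genes was 0.81 in Veh and 0.78 in NRRA, against 0.0012 and 0.066 over all tested genes. In the same comparisons, 16 of 16 fibroblast markers were called higher in each medium (median log2 differences 0.89 and 0.96). The germ cell markers were called lower for 8 of 8 in each, with medians of -1.01 and -0.99. Members were called in both directions, and the part of these lists in their differences was not tested. Of 6 macrophage markers tested, 3 were called higher and 1 lower in Veh, and 5 higher in NRRA. Of 5 Sertoli markers tested, 3 were called higher in Veh, and 3 higher and 1 lower in NRRA. Of 3 Leydig markers tested, 1 was called higher in Veh and 1 lower in NRRA. Genotype and whatever sets these marker levels cannot be told apart in these libraries.

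In Veh, the largest differences among the members were those of Cyp26a1, Stra6 and Cyp26b1. The 5 and 12 Cyp26a1 counts of STRA8KO lay below the 31 and 25 of SPO11KO, a 2.95-fold lower level (log2 -1.56, SE 0.399, adjusted p = 0.000682). Without STRA8KO Veh replicate 1 this difference was -0.98 (adjusted p = 0.0638) and no longer called, and without replicate 2 it was -2.39. Stra6 was 2.36-fold higher in STRA8KO (log2 1.24, SE 0.378, adjusted p = 0.00403), Cyp26b1 2.28-fold (log2 1.19, SE 0.0502, adjusted p = 1.88e-25), Crabp1 2.20-fold (log2 1.14, SE 0.0349, adjusted p = 3.88e-31) and Dhrs3 2.09-fold (SE 0.104 on the log2 scale, adjusted p = 1.72e-12). Crabp2 was 1.58-fold higher (log2 0.66, SE 0.116, adjusted p = 2.13e-06). The smaller calls were less stable. Rdh10 was 1.24-fold higher (log2 0.31, adjusted p = 0.0415), which the test lost with total counts (0.19, adjusted p = 0.207), with the DESeq2 Wald test (0.31, adjusted p = 0.167) and without either STRA8KO Veh library (adjusted p = 0.125 and 0.118) or without SPO11KO Veh replicate 1 (adjusted p = 0.187). Aldh1a3 was 1.48-fold lower (log2 -0.56, SE 0.186, adjusted p = 0.00763), but -0.36 (adjusted p = 0.166) without STRA8KO Veh replicate 2 and not called by DESeq2 (adjusted p = 0.0956). Aldh1a1 missed the threshold (log2 0.96, 95% interval 0.078 to 1.84, adjusted p = 0.0535) and passed it without SPO11KO Veh replicate 1 (1.73, adjusted p = 0.0122). Aldh1a2 did not pass either (log2 0.14, 95% interval -0.12 to 0.40, adjusted p = 0.362).

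In NRRA, Stra6 and Dhrs3 stood furthest apart. Stra6 was 3.71-fold higher in STRA8KO (log2 1.89, SE 0.180, adjusted p = 4.32e-13), Dhrs3 3.18-fold (log2 1.67, SE 0.0559, adjusted p = 5.22e-29) and Cyp26b1 2.80-fold (log2 1.49, SE 0.0433, adjusted p = 3.26e-31). Crabp2 was 2.23-fold higher (log2 1.15, SE 0.0834, adjusted p = 3.8e-17) and Crabp1 1.81-fold (log2 0.86, SE 0.0357, adjusted p = 3.12e-26). Against these, Cyp26a1 was 1.92-fold lower in STRA8KO (log2 -0.94, SE 0.119, adjusted p = 1.26e-09) and Aldh1a2 1.70-fold lower (log2 -0.76, SE 0.117, adjusted p = 1.47e-07). No library of STRA8KO overlapped one of SPO11KO for any of these 7 genes. Aldh1a1 was called 1.62-fold higher (log2 0.70, SE 0.268, adjusted p = 0.0211), a call lost with total counts (0.49, adjusted p = 0.106), with DESeq2 (adjusted p = 0.214), without STRA8KO NRRA replicate 1 (0.41, adjusted p = 0.326) and without SPO11KO NRRA replicate 1 (0.55, adjusted p = 0.135). Aldh1a3 (log2 0.59, 95% interval -0.024 to 1.20, adjusted p = 0.0875) and Rdh10 (0.07, -0.20 to 0.33, adjusted p = 0.661) were not called. The Rdh10 difference turned to -0.14 with total counts, and was called at 0.34 (adjusted p = 0.0399) without STRA8KO NRRA replicate 2.

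**Figure D3:**
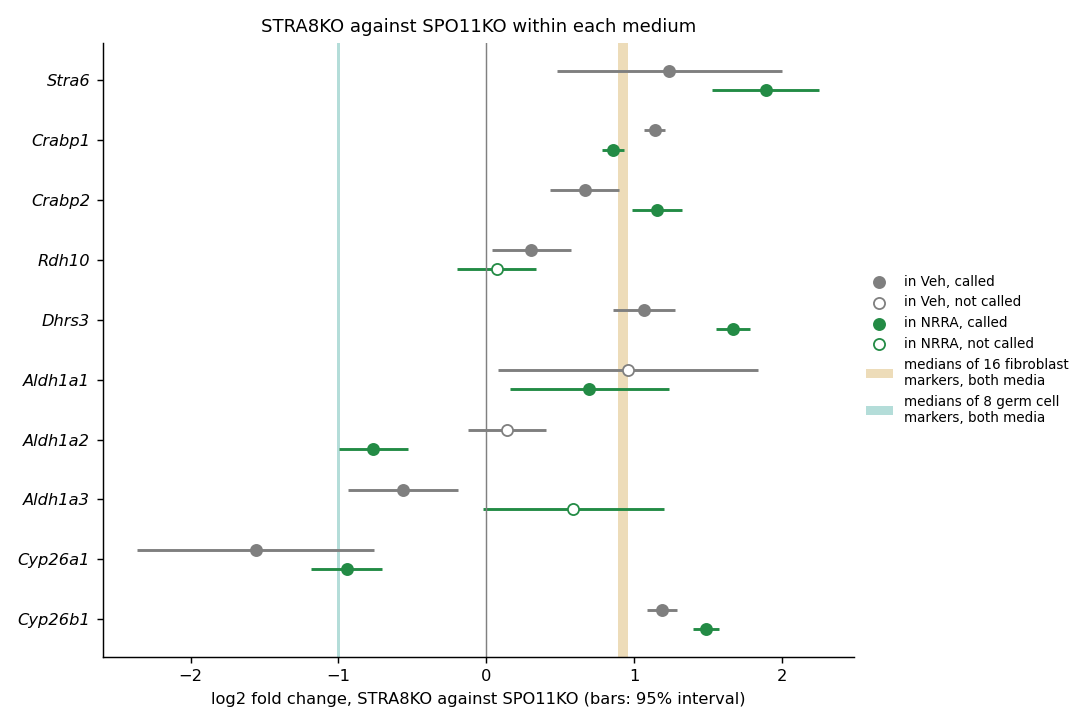
Log2 fold change of STRA8KO against libraries labelled SPO11KO for the 10 genes in Veh (grey) and in NRRA (green), with 95% intervals as bars and open circles for genes not called. Shaded bands span the medians of 16 fibroblast markers (0.89 to 0.96) and 8 germ cell markers (-1.01 to -0.99) in the same comparisons. Cyp26a1 lies on the side of the germ cell markers in both media. Stra6, Crabp1, Crabp2, Dhrs3, Cyp26b1, Aldh1a1 and Rdh10 lie on that of the fibroblast markers, the last 2 called in a single medium each. Aldh1a2, called in NRRA alone, and Aldh1a3, called in Veh alone, have estimates on opposite sides of 0 in the 2 media.

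The third question was whether the NRRA effect itself differed between the genotypes. The test of that difference, the effect in STRA8KO minus the effect in SPO11KO, called 4 of the 10 genes higher, where 14.8% of all tested genes were called higher, and 2 lower, where 10.3% were. With total counts those shares were 10.6% and 16.9%, and the members' counts remained 4 and 2. Dhrs3 rose more in STRA8KO (difference 0.60 on the log2 scale, SE 0.121, adjusted p = 0.000113), as did Cyp26b1 (0.30, SE 0.0661, adjusted p = 0.000501) and Crabp2 (0.49, SE 0.144, adjusted p = 0.00828). Crabp1 fell further in STRA8KO (-0.28, SE 0.0495, adjusted p = 1.16e-05). Aldh1a2, which was called in SPO11KO and not in STRA8KO, also differed (-0.90, SE 0.176, adjusted p = 6.72e-05). Aldh1a3 fell less in STRA8KO (1.15, SE 0.357, adjusted p = 0.0126). The Aldh1a3 call was lost with DESeq2 (1.13, adjusted p = 0.0894) and without replicate 2 of STRA8KO Veh (0.95, adjusted p = 0.0639) or of STRA8KO NRRA (0.95, adjusted p = 0.128). That of Crabp2 was lost with DESeq2 (0.46, adjusted p = 0.0922), without STRA8KO Veh replicate 1 (0.41, adjusted p = 0.0768) and without SPO11KO NRRA replicate 1 (0.39, adjusted p = 0.0628). For Cyp26a1 (0.62, 95% interval -0.25 to 1.48, adjusted p = 0.333), Stra6 (0.65, -0.25 to 1.55, adjusted p = 0.324), Aldh1a1 (-0.26, -1.28 to 0.76, adjusted p = 0.779) and Rdh10 (-0.24, -0.61 to 0.14, adjusted p = 0.406) the difference did not pass the test. Rdh10 was called at -0.56 (adjusted p = 0.0333) without STRA8KO NRRA replicate 1. Of the 16 fibroblast markers, 4 were called higher and 1 lower in this test, with a median of 0.045.

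The make-up of the enzyme pairs in RNA also differed between the groups, again compared per length. The summed level of the 3 Aldh1a genes was 4.66 and 4.66 CPM per kb in Veh and 4.75 and 4.13 in NRRA for STRA8KO, and 4.86 and 4.45 against 6.51 and 6.67 for SPO11KO, so the SPO11KO NRRA libraries alone lay above the rest. Aldh1a2 held most of it throughout, from 69.4% to 80.6% in the Veh libraries, 80.3% and 80.5% in STRA8KO NRRA, and 92.0% and 91.3% in SPO11KO NRRA. The share of Aldh1a3 went from 21.6% and 15.7% to 5.50% and 8.23% in STRA8KO and from 26.3% and 29.4% to 3.20% and 2.88% in SPO11KO. Cyp26a1 made up 0.475% and 1.27% of the hydroxylase pair in Veh and 5.47% and 6.35% in NRRA for STRA8KO, and 6.33% and 4.74% against 24.6% and 26.1% for SPO11KO. Its share with NRRA in STRA8KO was thus near that of SPO11KO without NRRA. The ratio of Cyp26b1 to Cyp26a1 went from 210 and 78.0 in STRA8KO Veh to 3.07 and 2.83 in SPO11KO NRRA, and the first pair of values rests on the 5 and 12 counts of Cyp26a1. Dhrs3 exceeded Rdh10 by 2.10 and 1.95 times in STRA8KO Veh and by 20.4 and 33.6 times with NRRA, and by 1.33 and 1.06 times in SPO11KO Veh and 8.23 and 8.73 times with NRRA. Crabp1 remained at 96.2% or more of the Crabp pair in all 8 libraries. Fibroblast and germ cell marker levels differ between the same groups, and bulk libraries do not show which cells each gene's RNA came from. A change of balance within cells and a change of cell mix cannot be told apart here. No test was run on these ratios.

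**Figure D4:**
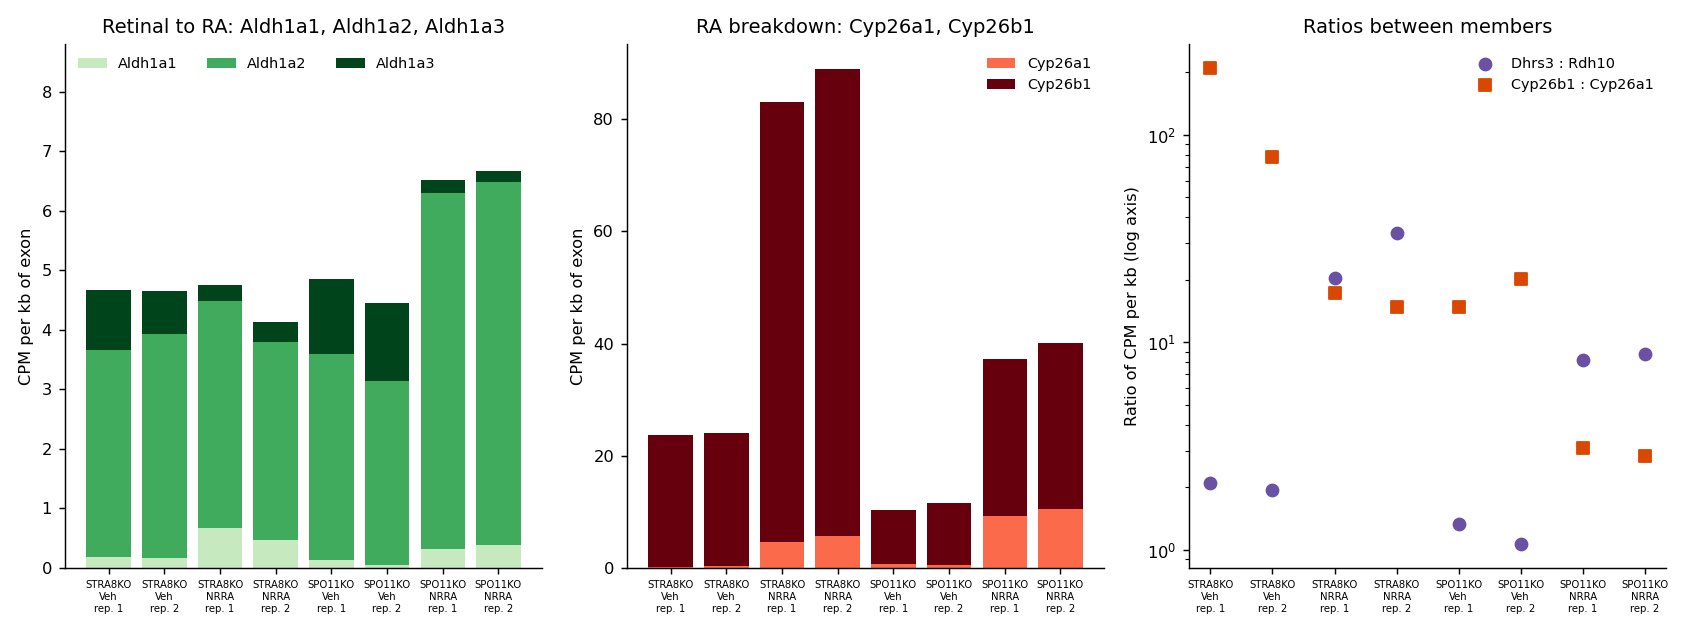
Left and middle, stacked levels in CPM per kb of exon of the 3 Aldh1a genes and of Cyp26a1 with Cyp26b1 in each of the 8 libraries, from axes that start at 0. Right, the ratios of Dhrs3 to Rdh10 and of Cyp26b1 to Cyp26a1 per library on a log axis. Aldh1a2 makes up most of each left bar, Cyp26b1 most of each middle bar, and the Cyp26b1 to Cyp26a1 ratio runs from 210 down to 2.83.

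The wider retinoid pathway was described through 29 further genes for carriers, storage, retinol and retinal oxidation, carotenoid cleavage and RA breakdown. Of these, 18 passed the filter, and 5 had at most 3 counts in every library. Called higher and lower were 10 and 1 with NRRA in STRA8KO, 8 and 2 with NRRA in SPO11KO, 8 and 3 for STRA8KO against SPO11KO in Veh, and 11 and 4 in NRRA, with median log2 values of 0.49, 0.34, 0.20 and 0.42 over the 18. The interaction called 3 higher and 2 lower. Of all tested genes, the same calls took 21.6% and 20.2% with NRRA in STRA8KO and 24.5% and 25.5% with NRRA in SPO11KO. They took 31.6% and 30.7% between genotypes in Veh, 35% and 28.9% in NRRA, and 14.8% and 10.3% in the interaction. Counting both directions, the calls with NRRA in SPO11KO, between genotypes in Veh and in the interaction were near the share over all genes. In the first 2 of these, higher calls took more of these genes than of all genes, and lower calls fewer. Those shares were not tested against the counts of these genes. The DESeq2 Wald test called 7 of them with NRRA in STRA8KO, 5 with NRRA in SPO11KO, 7 between genotypes in Veh and 3 in the interaction. For the genotypes in Veh, edgeR called 6 or 7 without STRA8KO Veh replicate 1 or without either SPO11KO Veh library. In the interaction it called 3 without STRA8KO Veh replicate 1. Cyp26c1 (chromosome 19, 37685581 to 37693398, plus strand), the third RA hydroxylase gene and a neighbour of Cyp26a1, went from 12 and 11 counts in Veh to 42 and 54 in NRRA for STRA8KO, and from 5 and 6 to 97 and 121 counts for SPO11KO. It rose 4.12-fold in STRA8KO (adjusted p = 1.07e-06) and 16.4-fold in SPO11KO (adjusted p = 1.73e-14), and the effects differed (log2 -1.99, SE 0.566, adjusted p = 0.00609). Bco1, whose enzyme cleaves beta-carotene to retinal, went from 6 and 4 counts in Veh to 73 and 67 in NRRA for STRA8KO, and gave 8 and 10 against 15 and 11 counts for SPO11KO. Its 13.7-fold rise in STRA8KO (adjusted p = 3.45e-11) set against 1.22-fold in SPO11KO (adjusted p = 0.655) gave a log2 difference of 3.48 (SE 0.686, adjusted p = 7.89e-05). Stra6l, a relative of Stra6 that encodes another receptor for retinol uptake, was called in opposite directions, with 20 and 15 then 44 and 35 counts in STRA8KO (2.25-fold higher, adjusted p = 0.0037) and 35 and 37 then 16 and 24 counts in SPO11KO (2.12-fold lower, adjusted p = 0.00497). DESeq2 did not call either Stra6l effect (adjusted p = 0.0582 and 0.0669), and each lost its call without replicate 1 of its NRRA libraries (adjusted p = 0.0713 and 0.0566).

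Among the carriers and oxidising enzymes, Adh1, an alcohol dehydrogenase that can oxidise retinol, had 31 and 29 then 186 and 164 counts in STRA8KO (5.80-fold, adjusted p = 1.08e-14) and 24 and 31 then 86 and 120 in SPO11KO (3.15-fold, adjusted p = 3.98e-08). Fabp5, a fatty acid carrier that also binds RA, rose 2.38-fold (adjusted p = 1.65e-12) and 2.33-fold (adjusted p = 3.44e-12). Dhrs9, a short-chain dehydrogenase that acts on retinol, fell from 15.8 and 12.6 to 7.33 and 6.41 CPM in STRA8KO (2.08-fold, adjusted p = 3.69e-09). It fell in SPO11KO too (1.43-fold, adjusted p = 0.00788), a call lost with DESeq2 (adjusted p = 0.0579). The interaction of Dhrs9 was not called (adjusted p = 0.0613), but was with total counts (adjusted p = 0.0236). Dhrs9 was higher in STRA8KO than in SPO11KO, 2.84-fold in Veh (adjusted p = 1.54e-13) and 1.96-fold in NRRA (adjusted p = 7.44e-07). Dhrs4, a retinal reductase, differed by genotype, being 2.02-fold higher in STRA8KO in Veh (adjusted p = 2.19e-10) and 2.13-fold in NRRA (adjusted p = 2.7e-12).

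The genes whose log2 CPM followed each member most closely over the 8 libraries were listed as a description, out of 13906 genes. The nearest were Setbp1 for Stra6 (Pearson r = 0.999), Sat1 for Crabp1 (0.999), Irgm2 for Crabp2 (0.998), Galnt17 for Dhrs3 (0.999), Fat4 for Cyp26b1 (0.999), Col8a2 for Cyp26a1 (0.998), Alas1 for Aldh1a3 (0.994), Syt7 for Aldh1a2 (0.990) and Folh1 for Aldh1a1 (0.982). Rdh10 had the weakest match, Commd2 at 0.898. Among the members, Crabp2 and Stra6 were the closest pair (r = 0.997), followed by Dhrs3 with Stra6 (0.990) and Cyp26b1 with Crabp2 (0.988), and Cyp26a1 ran most opposite to Crabp1 (-0.950). All points share the same 4 groups of 2 libraries, so such values describe group means, and fibroblast and germ cell marker levels differ between the same groups.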

How the data were processed

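Poly(A) RNA was sequenced paired-end from 8 libraries, 2 for each genotype and medium. The deposited values are raw read counts per gene, which the authors made, per the submitters' processing notes, with bcl2fastq, STAR 2.6.1c and featureCounts 1.6.4 on mm10. Multi-mapping and strand settings are not given in the sources used here, and reads shared by near-identical genes could be lost or split. Groups came from the GEO labels. In R 4.3.3, edgeR 4.0.16 was used for testing. Its filterByExpr left 20588 of 55421 genes, which held 99.88% of the counts, libraries were scaled by TMM, and a group-means model of all 8 libraries was tested with robust two-sided quasi-likelihood F tests, adjusted by Benjamini-Hochberg over the tested genes. CPM are per library after TMM scaling, and SE is the absolute log2 fold change over the square root of F. Total counts of 20960794 to 27038868 set the precision, and with no molecular identifiers used, counting error is only part of it. Libraries of a group differed by more than sampling noise (mean chi-square per gene 1.86 to 4.12, median 0.741 to 0.973), with Spearman correlations of 0.9943 to 0.9951. These values do not show whether the libraries came from separate cultures. The paper's reporting summary states that its sequencing used 2 independent biological replicates. Each library was counted as 1 sample.

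Coordinates and exon lengths are from GENCODE M21 (GRCm38), and promoter windows and their sequences from RefSeq (GRCm38.p6), matched by symbol. Exons of the 10 genes overlap no other annotated exon. The members, gene lists and naming rules were chosen with earlier results of these data known. All members were named, and further retinoid genes if called with an absolute log2 fold change of at least 1 in 1 of the 5 comparisons and a mean of at least 1 CPM, to a limit of 10, which gave 8, of which 1 is not reported here. Likeness used Pearson's r of log2 CPM (prior count 2) over genes with a mean of at least 1 CPM. Scripts were tested on simulated counts. Other settings tried were total counts, DESeq2 size factors, no filter beyond 1 count, a mean of at least 10 counts, the DESeq2 1.42.0 Wald test (the tool of the study's methods), the 4 libraries of a comparison alone, a replicate block and leaving out each library. The treatment label reads NRRA for every sample, so the medium was taken from the labels of each sample's source.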

Additional observations from a re-analysis of the deposited data

Results flagged for a closer look

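The effect of NRRA differed between STRA8KO and libraries labelled SPO11KO, by edgeR's test of the interaction, for 6 of the 10 retinoid genes, where 14.8% of all tested genes were called higher and 10.3% lower. The log2 differences, STRA8KO minus SPO11KO, were 0.60 for Dhrs3, 0.30 for Cyp26b1, 0.49 for Crabp2, -0.28 for Crabp1, -0.90 for Aldh1a2 and 1.15 for Aldh1a3. The Crabp2 and Aldh1a3 calls were lost with DESeq2 (adjusted p = 0.0922 and 0.0894) and each without either of 2 single libraries. Among the further retinoid genes named, they were 2.25 for Stra6l (adjusted p = 0.000186), 3.48 for Bco1 and -1.99 for Cyp26c1. For Stra6l the 2 genotypes moved in opposite directions. The other differences with called effects of the same sign in both genotypes were differences of size, and Aldh1a2 and Bco1 were each called in a single genotype.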

How the results depend on the processing

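With 2 libraries a group, each value rests on few samples, and counts were low for Cyp26a1, Stra6 and Aldh1a1 in Veh, with 5 to 31 a library. With total counts the median of all genes moved to 0.10 for NRRA in SPO11KO, -0.11 for the genotypes in Veh and -0.14 in NRRA on the log2 scale. Of the 50 values of the members, 47 kept direction and call with total counts, 45 with the DESeq2 Wald test, and all 50 with DESeq2 size factors, with either filter and with the replicate block. Leaving out a library kept 217 of 240. The number of members called stayed within 1.5 times under each alternative. With the DESeq2 Wald test, 3346 genes were called in the interaction in place of 5174, and the further retinoid genes called were 7 in place of 11 for NRRA in STRA8KO, 5 in place of 10 for NRRA in SPO11KO, 7 in place of 11 for the genotypes in Veh, and 3 in place of 5 in the interaction. Leaving out a library gave 3 to 6 further retinoid genes called in the interaction and 6 to 8 for the genotypes in Veh. The cause of these shifts was not tested.

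Signs changed in results that were not called. The Rdh10 difference between genotypes in NRRA, 0.07 on the log2 scale, was -0.14 with total counts and -0.0029 with the 4 libraries alone, and -0.25 to 0.34 when a library was left out. On leaving out a library, the NRRA effect on Rdh10 ranged from -0.54 to 0.056 in STRA8KO and from -0.044 to 0.067 in SPO11KO, and its interaction from -0.56 to 0.033. The interaction of Aldh1a1 ranged from -1.03 to 0.23, the NRRA effect on Aldh1a2 in STRA8KO from -0.12 to 0.079, and that on Bco1 in SPO11KO from -0.046 to 0.56. The interaction of Dhrs4 was -0.017 with total counts and -0.040 to 0.19 without a library, and that of Fabp5 was -0.061 with total counts, -0.030 with no filter beyond 1 count, -0.0013 with DESeq2 and -0.087 to 0.16 without a library. Replicate numbers are shared between groups, but the study's methods state no pairing, so libraries were not treated as paired. Deviations of same-numbered libraries correlated at -0.068 to 0.105 over 16681 genes, the highest between SPO11KO Veh and SPO11KO NRRA. Such deviations also hold counting noise, so these values cannot exclude a pairing. With a replicate block, 8542 genes were called for NRRA in STRA8KO in place of 8620, and 10215 in place of 10280 in SPO11KO, and the block changed no call of a member.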
